A study of Mus musculus with 10 samples.

Results

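The semaphorins, ephrins, Slits and netrins are guidance ligands, and the plexins, neuropilins, Eph, Robo and Unc5 proteins are their receptors. Their RNA was followed in mouse embryos at embryonic day 5.5, on every probe set of the MOE430A and MOE430B arrays that was annotated to exactly 1 gene symbol of these families. The symbols chose 149 probe sets of 68 genes: 20 semaphorin, 10 plexin, 2 neuropilin, 8 ephrin, 13 Eph, 3 Slit, 4 Robo, 4 netrin and 4 Unc5 genes. Both array types together hold 45137 probe sets without the controls, and 18193 genes had a probe set annotated to exactly 1 symbol. Among the 10 genes counted as plexins is Plxna4os1, an antisense RNA whose symbol begins with the same letters, and no probe set was a member on both array types.

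All embryos came from B6SJLF1×CerlP-GFP matings, so that green fluorescence driven by a Cerl promoter marked the anterior visceral endoderm, and none had been treated. The Ad group was the anterior distal fragment, which held the fluorescent tissue together with the epiblast beneath it, and the Pp group was a proximal fragment of visceral endoderm and epiblast taken opposite to it, up to the border with the extraembryonic region. A whole embryo served as the third kind of sample. Each array type carried 2 Ad, 2 Pp and 1 whole-embryo array, the fragments numbered 1 and 2 on MOE430A and 3 and 4 on MOE430B. Nothing in the labels says that replicates are separate embryos, and p-values here reflect the spread among the arrays alone, which may be technical. The fragments are mixtures of at least 2 tissues, and in them fewer cells of a type and less RNA per cell cannot be told apart.

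Guidance ligands and receptors were first known for steering growing axons, and they also act wherever cells meet, move or sort apart. Semaphorins signal through plexins, with neuropilins as co-receptors of the secreted class. Ephrins are tethered to the membrane and signal through Eph receptor tyrosine kinases on the neighbouring cell, and can signal back into the cell that carries them. Slits bind Robo receptors, and netrins bind Dcc and Unc5 receptors. The anterior visceral endoderm is an epithelium that migrates at this stage from the distal tip of the egg cylinder towards the prospective anterior side.

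Among members past the threshold, Sema6d had the largest difference between Ad and Pp and Efnb2 the largest between fragments and whole embryo. The 250 bases before their RefSeq transcription starts are shown here from the GRCm38.p6 table, which held 58 of the 68 member genes. Sema6d has 2 listed starts on the plus strand, 564 kilobases apart, at the ends of chr2:124089719-124089968 and chr2:124653331-124653580. Both are shown because the 4 Sema6d probe sets disagreed, and the files do not place a probe set on one or the other transcript. Efnb2 lies on the minus strand, with its window at chr8:8661243-8661492, and is shown because 2 of its probe sets were lower in the fragments than in the whole embryo.
Sema6d, first start: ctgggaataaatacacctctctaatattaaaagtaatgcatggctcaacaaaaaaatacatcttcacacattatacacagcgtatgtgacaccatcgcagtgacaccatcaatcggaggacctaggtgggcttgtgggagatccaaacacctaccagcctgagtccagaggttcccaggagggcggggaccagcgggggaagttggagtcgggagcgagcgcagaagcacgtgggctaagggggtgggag
Sema6d, second start: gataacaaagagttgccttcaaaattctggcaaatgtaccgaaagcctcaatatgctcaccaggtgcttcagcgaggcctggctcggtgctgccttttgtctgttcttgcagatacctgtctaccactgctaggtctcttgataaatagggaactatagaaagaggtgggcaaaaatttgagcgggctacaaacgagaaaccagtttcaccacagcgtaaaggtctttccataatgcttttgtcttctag
Efnb2: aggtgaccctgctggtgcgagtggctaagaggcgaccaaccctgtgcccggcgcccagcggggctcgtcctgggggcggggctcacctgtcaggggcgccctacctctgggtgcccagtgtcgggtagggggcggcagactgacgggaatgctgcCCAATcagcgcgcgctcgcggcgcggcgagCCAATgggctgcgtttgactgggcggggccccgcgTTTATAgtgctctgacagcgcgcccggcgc
The capitals mark exact matches, on either strand, to 5 short motifs. These were TAATCC, bound by the homeodomain factors Otx2 and Gsc, TAATTA, bound by LIM homeodomain factors, TGTTTAC, bound by forkhead factors, the CCAAT box and the TATA box letters TATAAA. Efnb2 held 2 CCAAT matches and 1 TATAAA match, which begin 95, 65 and 30 bases before the start. Neither Sema6d window held any of the 5. Of all 32851 windows of this length, 6.25% held TAATCC, 4.84% TAATTA, 3.17% TGTTTAC, 33.8% CCAAT and 12.4% TATAAA. The Efnb2 window was richer in G and C (72.0%, with 27 CpG sites) than the Sema6d windows (52.4% and 45.2%, with 9 and 6), against medians of 52.4% and 6 over all windows. A match is only a run of letters, and the absence of one says nothing about a factor's binding.

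Signals are the deposited MAS5 intensities per probe set, in arbitrary units, which can be compared between arrays of a type and not between probe sets. Array medians were 591 to 645 on MOE430A and 56.7 to 61.0 on MOE430B. A probe set counted as measured when its mean log2 value over the 5 arrays of its type lay above the 40th percentile, near 464 units on MOE430A and 37.2 units on MOE430B. The filter kept 79 member probe sets of 55 genes, 44 of 95 on MOE430A and 35 of 54 on MOE430B. The 13 genes with no measured probe set were Efna1, Epha1, Epha3, Epha6, Epha7, Epha8, Ephb6, Plxnb3, Robo2, Robo3, Sema5a, Slit2 and Unc5a. Differences are log2 values from a limma fit over all probe sets of a type, with an SE, and a difference passed at a Benjamini-Hochberg adjusted p of 0.05 over that whole table. As a check of the labels, 6 of 12 measured anterior and distal visceral endoderm genes rose in Ad on MOE430A, with the list's summed signal at 29471 and 23936 in Ad, 10243 and 9575 in Pp and 12025 in the whole embryo.

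Between Ad and Pp, Sema6d was the member that passed, by 1 of its probe sets, and no other member did with 2 arrays a group. On MOE430A, 0 of 44 measured members passed in limma and 6 had an unadjusted p under 0.05, where 0.162% of all 13575 measured probe sets passed as higher in Ad, 0.00737% as lower, and 11.7% had such an unadjusted p. On MOE430B, 1 of 35 members passed as higher and 0 as lower, against 0.104% and 0.0074% of all 13506, and 7 had an unadjusted p under 0.05, against 10.4% of all. Of the 79 measured members 39 on MOE430A and 23 on MOE430B lay within 0.25 of 0 on the log2 scale. The median size of the difference, without its sign, was 0.087 for members and 0.081 for all measured probe sets on MOE430A, and 0.18 and 0.15 on MOE430B. On the centred log2 scale, which can differ from the order of the signals where arrays lie close, Ad and Pp arrays that did not overlap, whatever the distance, were found for 4 members higher and 17 lower in Ad on MOE430A, against 16.2% and 29.1% of all probe sets, and for 10 higher and 6 lower on MOE430B, against 19.3% and 23.4%.

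**Figure D1:**
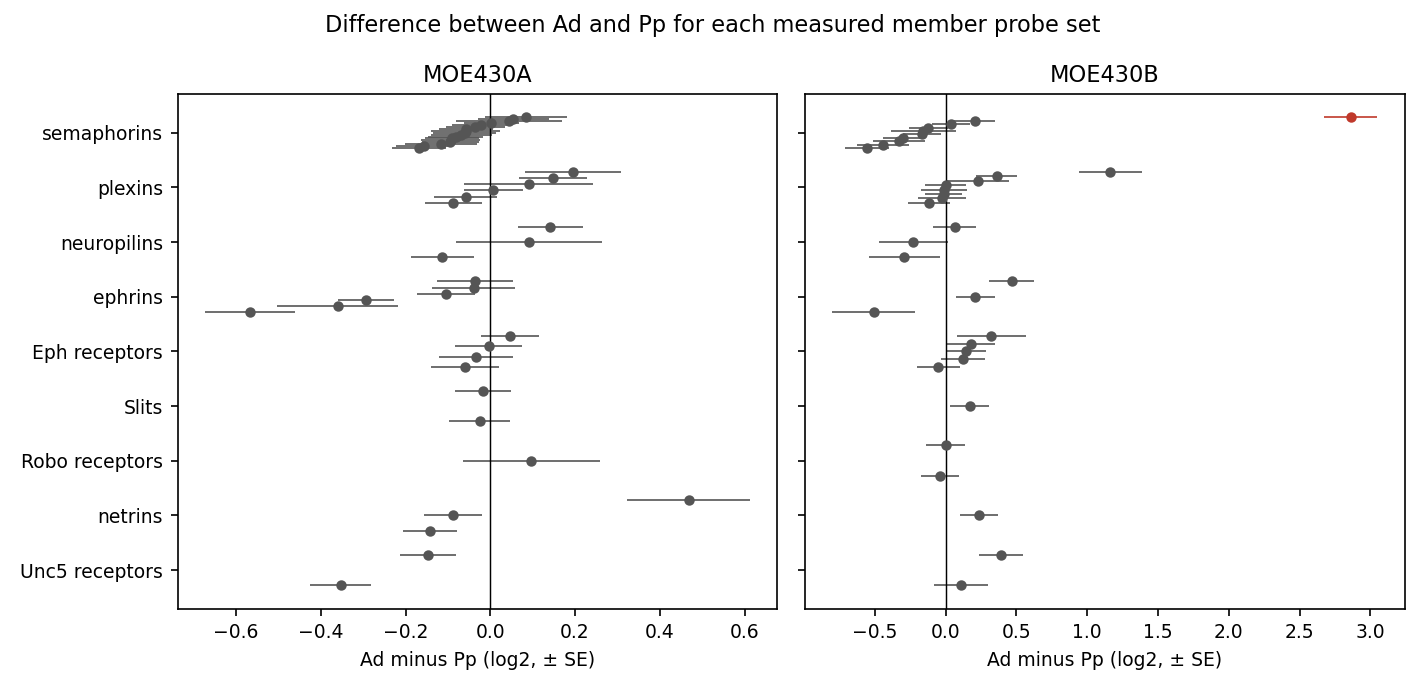
Ad minus Pp on the log2 scale for each of the 79 measured member probe sets, grouped by family, on MOE430A (left) and MOE430B (right). Points are fitted differences, bars are SE, and red marks the 1 probe set past an adjusted p of 0.05, Sema6d at 2.86; the 2 panels have different horizontal scales.

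Among the semaphorins 27 of 48 probe sets were measured, for 19 of 20 genes. Sema6d encodes a transmembrane semaphorin of class 6, a group that binds plexins of the A class. Its probe set 1453055_at on MOE430B had signals of 839 and 686 in Ad replicates 3 and 4, 101 and 79.5 in Pp replicates 3 and 4, and 534 in the whole embryo. Both Ad arrays lay far above both Pp arrays, and the whole embryo lay between them. The fitted difference was 2.86 ± 0.19 (SE; 7.27-fold, adjusted p = 0.00531), and the means were 762 ± 109 in Ad and 90.4 ± 15.5 in Pp (SD, n = 2 each). Every Ad array lay 2-fold or more above every Pp array on the fitted scale, a separation found for no other member on MOE430B and 0 on MOE430A, against 0.0958% of all probe sets there and 0.215% on MOE430B. The call ended with no filter on dim probe sets (adjusted p = 0.0584), without Ad replicate 3 (0.109) and without Ad replicate 4 (0.101); the difference stayed between 2.71 and 3.02 in these 3 settings.

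The other Sema6d probe sets did not share this difference. On MOE430B, 1446536_at was at 232 and 237 in Ad, 244 and 257 in Pp and 196 in the whole embryo, with a difference of -0.17 ± 0.13 (SE; adjusted p = 0.696). There 1459318_at was at 214 and 177 in Ad, 277 and 274 in Pp and 238 in the whole embryo, so its Ad arrays lay below its Pp arrays (-0.55 ± 0.15, SE, adjusted p = 0.410). On MOE430A, 1448060_at was nearly level, at 771 and 697 in Ad, 763 and 739 in Pp and 835 in the whole embryo (-0.09 ± 0.07, SE, adjusted p = 0.623). The 4 Sema6d differences span 3.42 on the log2 scale. Across the 19 member genes with more than 1 measured probe set the median span was 0.19, 14 spans were under 0.25, and the next widest was Plxna2 at 1.18.

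**Figure D2:**
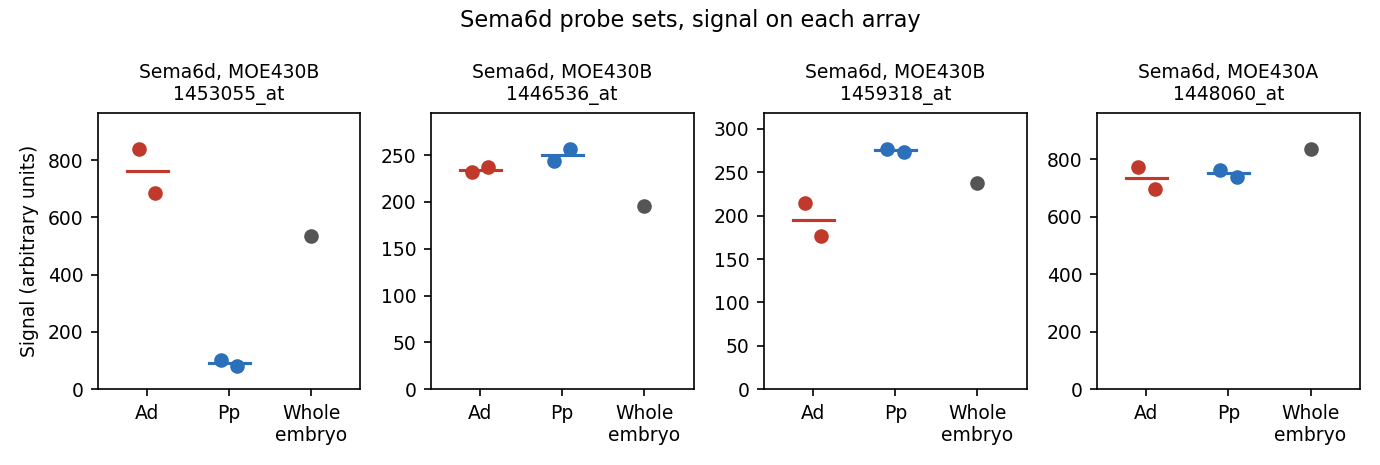
Signal of the 4 Sema6d probe sets on each array, in arbitrary units on axes that start at 0. Points are single arrays and bars the mean of 2; 1453055_at is high in Ad (839 and 686) and low in Pp (101 and 79.5), and the other probe sets are not.

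The class 3 semaphorins are secreted, and most of them bind neuropilins. None passed in either comparison in limma, with an unadjusted p under 0.05 for Sema3d between Ad and Pp and for Sema3c and Sema3e against the whole embryo. Sema3d on MOE430B (1453148_at) was at 86.6 and 64.1 in Ad, 88.9 and 111 in Pp and 114 in the whole embryo (-0.44 ± 0.18, SE, adjusted p = 0.479). Sema3c on MOE430B (1429348_at) was at 137 and 161 in Ad and 205 and 156 in Pp, with its highest value, 259, in the whole embryo. The signals of Ad and Pp overlapped slightly, and the centred log2 values did not (-0.33 ± 0.19, SE, adjusted p = 0.592). Sema3f, a repellent ligand with high affinity for Nrp2, was at 1443 and 1384 in Ad, 1697 and 1617 in Pp and 1599 in the whole embryo by 1438947_x_at on MOE430B (-0.30 ± 0.14, SE, adjusted p = 0.517). Its 2 MOE430A probe sets had differences of -0.08 and -0.12. Against the whole embryo, Sema3c differed by -0.65 ± 0.21 (SE, adjusted p = 0.204). Sema3e, a ligand that can act without a neuropilin, differed from it by -0.46 ± 0.15 (SE, adjusted p = 0.217), by 1442226_at on MOE430B. Of the transmembrane classes, Sema6b was at 799 and 784 in Ad, 880 and 852 in Pp and 841 in the whole embryo (-0.17 ± 0.06, SE, adjusted p = 0.407). Sema4d, a ligand of Plxnb1, had 1 probe set at -0.16 and another at 0.00262 (adjusted p = 0.434 and 0.991). The 17 measured semaphorin probe sets on MOE430A all had differences between -0.17 and 0.08, with a median of -0.06 that turned to 0.01 with no centring. The 10 on MOE430B had a median of -0.16, negative under each of the 4 scalings.

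Of the plexins, with the antisense RNA Plxna4os1 counted, 14 of 23 probe sets were measured, and of the neuropilins 6 of 8. In limma 0 passed in either comparison. An unadjusted p under 0.05 between Ad and Pp was found for Plxna2 and Plxna4os1 on MOE430B, against 10.4% of all probe sets there. Against the whole embryo 0 had such a p, where 27.3% of all did on MOE430A and 16.4% on MOE430B. The largest difference was in Plxna2, a class A plexin: 1455037_at on MOE430B was at 222 and 149 in Ad, 61.2 and 82.9 in Pp and 85.6 in the whole embryo. Both Ad arrays were above the other 3, and the difference of 1.16 ± 0.22 (SE) did not pass (2.24-fold, adjusted p = 0.270). Another Plxna2 probe set, 1453286_at, was flat on the same arrays, at 88.9 and 86.0 in Ad, 81.7 and 85.0 in Pp and 92.6 in the whole embryo. The remaining 2 Plxna2 probe sets were not measured, one of them at exactly 1 on 4 of its 5 arrays.

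Plxna1, a receptor of Sema6d in other tissues, had differences of -0.09 and -0.12 on the 2 array types, and Plxna4 had 0.00149 and -0.01. Plxna4os1, antisense to Plxna4, was at 47.7 and 58.0 in Ad, 35.1 and 37.3 in Pp and 32.1 in the whole embryo (0.36 ± 0.15, SE, adjusted p = 0.477), with 1 Pp array and the whole embryo under the level called measured. The class B plexin Plxnb2 was at 2035 and 2021 in Ad, 1455 and 1863 in Pp and 1774 in the whole embryo (0.20 ± 0.11, SE, adjusted p = 0.547). It passed without Pp replicate 2, the Pp array nearer to Ad, in a fit whose spread rests on the 2 Ad arrays alone. Plxnc1, the receptor of Sema7a, was at 618 and 600 in Ad, 451 and 529 in Pp and 547 in the whole embryo by 1450905_at, and its other 5 probe sets were not measured. Plxnd1, a receptor of Sema3e, had overlapping groups (1414 and 1561 in Ad, 1576 and 1074 in Pp).

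The neuropilin gene Nrp1 was at 591 and 655 in Ad, 526 and 483 in Pp and 690 in the whole embryo by 1448943_at (0.14 ± 0.08, SE, adjusted p = 0.518). Its other 2 measured probe sets had differences of 0.09 on MOE430A, where the groups overlapped, and 0.06 on MOE430B. Nrp2, singled out after its values were seen, was uneven within Pp by 1 of its 3 measured probe sets: 1435349_at on MOE430B was at 163 and 144 in Ad, 133 in the third Pp replicate but 241 in the fourth, and 206 in the whole embryo. On the same arrays 1456778_at was even within Pp, at 92.6 and 51.8 in Ad, 77.3 and 79.9 in Pp and 113 in the whole embryo. On MOE430A 1426528_at was at 875 and 862 in Ad, 963 and 847 in Pp and 843 in the whole embryo.

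The ephrins gave 3 of the 5 member calls between fragments and whole embryo. Efnb2 encodes ephrin-B2, a transmembrane ligand of EphB receptors and of Epha4, known from angiogenesis and boundary formation. Its probe set 1419638_at on MOE430A was at 795 and 844 in Ad, 1128 and 1405 in Pp and 1968 in the whole embryo. The order was Ad, Pp, whole embryo, with no overlap. Over all probe sets on MOE430A, 29.1% had Ad below Pp without overlap on the centred log2 scale. All fragments lay below the whole embryo for 22.7%, and the share with both was not counted. The fragments averaged 1043 ± 282 (SD, n = 4), and their fitted difference from the whole embryo was -0.72 ± 0.12 (SE, adjusted p = 0.0215), which makes the whole embryo 1.65-fold higher. Probe set 1419639_at was at 1020 and 1022 in Ad, 1094 and 1549 in Pp and 2233 in the whole embryo (-0.74 ± 0.16, SE, adjusted p = 0.0438). Both probe sets read the same RNA samples and are not independent evidence. The Ad minus Pp differences of -0.57 ± 0.11 and -0.36 ± 0.14 (SE) did not pass (adjusted p = 0.187 and 0.418). They passed without Pp replicate 1 (adjusted p = 0.000315 and 0.00126), and the first also without Pp replicate 2 (0.0174), fits in which the spread rests on the 2 Ad arrays. The other 2 Efnb2 probe sets were not measured.

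Efnb1, the gene of another transmembrane ephrin, followed the same order: 1418286_a_at was at 703 and 727 in Ad, 899 and 856 in Pp and 1317 in the whole embryo. The fragments were lower than the whole embryo by -0.51 ± 0.07 (SE, adjusted p = 0.0163), a 1.42-fold higher signal in the whole embryo, while Ad minus Pp, at -0.29 ± 0.07 (SE), did not pass (adjusted p = 0.255). A second probe set, 1451591_a_at, was at 519 and 486 in Ad, 504 and 540 in Pp and 646 in the whole embryo and passed in neither comparison (adjusted p = 0.587 between Ad and Pp and 0.260 against the whole embryo). Efnb3 was level, at means of 1516 ± 88.1 in Ad and 1486 ± 213 in Pp (SD, n = 2 each) and 1591 in the whole embryo.

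Ephrin-A genes, whose products are anchored by a lipid, gave no call. Efna2 on MOE430B was at 67.8 and 85.1 in Ad, 51.1 and 46.9 in Pp and 38.6 in the whole embryo (0.47 ± 0.16, SE, adjusted p = 0.432). Efna5, named after its values were seen, was at 510 and 490 in Ad, 415 and 401 in Pp and 385 in the whole embryo on MOE430B, again with Ad above Pp without overlap (adjusted p = 0.638). On MOE430A the probe sets of Efna2 (1417521_at) and Efna5 (1421796_a_at) were not measured. With no filter their Ad minus Pp differences were -0.07 and -0.06, so they did not share this direction. Efna3, also singled out afterwards, was at 82.3 and 72.5 in Ad, 73.9 in the third Pp replicate but 156 in the fourth, and 132 in the whole embryo. On MOE430A its probe set lay mostly under the measured level, at 372 and 360 in Ad, 353 and 481 in Pp and 496 in the whole embryo, so that the second Pp array and the whole embryo were the high ones on both array types.

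Some extraembryonic ectoderm markers were also uneven within Pp. On MOE430A the summed signal of that list (8 of 8 genes measured) was 9193 and 8901 in Ad, 8823 in the first Pp replicate but 14270 in the second, and 14252 in the whole embryo, and none of the 8 was listed at 0. Elf5 had 340 and 296 in Ad, 601 and 2432 in Pp and 2194 in the whole embryo, and Bmp4 had 744 and 605 in Ad, 573 and 2359 in Pp and 1595 in the whole embryo. Cdx2, Eomes, Esrrb and Ets2 were likewise higher in the second Pp replicate than in the first, and 2 of the 8 were lower: Tfap2c, at 1256 and 1052 in Ad, 1295 and 1241 in Pp and 1239 in the whole embryo, and Sox21, at 779 and 621 in Ad, 808 and 729 in Pp and 946 in the whole embryo. On MOE430B the 3 genes of the list summed to 1303 and 1285 in Ad, 1031 and 1592 in Pp and 1534 in the whole embryo. The part of that tissue in the Efnb2, Efna3 and Nrp2 (1435349_at) values was not tested. Without Pp replicate 2 the Efnb2 probe set 1419638_at differed between Ad and Pp by -0.43, against -0.71 without Pp replicate 1.

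Of 28 Eph receptor probe sets, 9 were measured, for 7 of 13 genes, and 0 passed in either comparison in limma, with 0 unadjusted p under 0.05 between Ad and Pp and 1 against the whole embryo. Ephb3, a receptor of B ephrins, was at 4487 and 4259 in Ad, 3991 and 4549 in Pp and 4654 in the whole embryo. These values overlap between the groups, and the difference was -0.03 ± 0.09 (SE). Ephb4, the preferred receptor of Efnb2, had means of 853 ± 93.9 in Ad and 846 ± 34.7 in Pp (SD, n = 2 each) and 892 in the whole embryo, with a difference of -0.06 ± 0.08 (SE, adjusted p = 0.788). Epha4 had differences of -0.00404 and 0.18 by its 2 measured probe sets. Epha2 was at 1290 and 1202 in Ad, 1112 and 1149 in Pp and 1031 in the whole embryo, and its difference from the whole embryo, 0.25, did not pass (adjusted p = 0.109). Ephb1, Epha5 and Epha10 on MOE430B had adjusted p between 0.677 and 0.931 for Ad against Pp.

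Slit3, a secreted ligand of Robo receptors, was at 465 and 432 in Ad, 431 and 418 in Pp and 740 in the whole embryo on MOE430A. The 4 fragments were close together and all below the whole embryo (-0.45 ± 0.07, SE, adjusted p = 0.0211). The fragment signals lay around and under the measured level of 464, with a mean of 436, so no fold is given. Slit3 thus counted as measured only through the whole-embryo array, where it was high. With no filter the limma adjusted p against the whole embryo was 0.0156. Ad minus Pp was -0.02 ± 0.07 (SE). Slit1 differed by -0.03 and 0.17 between Ad and Pp on the 2 array types. Robo4, known as an endothelial member, was at 1297 and 1032 in Ad, 1217 and 825 in Pp and 1416 in the whole embryo, with overlapping groups (adjusted p = 0.827), and the 2 measured Robo1 probe sets were flat, at 0.0011 and -0.04. A dim Robo1 probe set on MOE430A, named after its values were seen, was at 311 and 457 in Ad, 290 and 191 in Pp and 655 in the whole embryo.

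Netrins and their Unc5 receptors had 8 of 12 probe sets measured. Ntn1, the best studied netrin, was at 852 and 797 in Ad, 618 and 383 in Pp and 501 in the whole embryo by 1454974_at. Both Ad arrays were above the other 3 (0.47 ± 0.15, SE), and the difference did not pass (1.38-fold, adjusted p = 0.353). It passed without Pp replicate 1 (0.69), the Pp array nearer to Ad, in a fit whose spread rests on the 2 Ad arrays alone. It did not pass without Pp replicate 2. Another Ntn1 probe set, 1422987_at, was not measured. Ntn5 on MOE430B was at 188 and 178 in Ad, 143 and 148 in Pp and 158 in the whole embryo (0.24 ± 0.13, SE, adjusted p = 0.593), and Ntn3 was slightly lower in Ad (794 and 779) than in Pp (846 and 836), with an adjusted p of 0.455. A dim Ntn4 probe set on MOE430B, named after its values were seen, was at 22.7 and 27.2 in Ad, 7.92 and 7.28 in Pp and 7.62 in the whole embryo, all under the measured level. With no filter its adjusted p was 0.486, and the measured Ntn4 probe set on MOE430A had a difference of -0.09.

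Unc5b, a netrin receptor, was at 3584 and 3288 in Ad, 4183 and 4291 in Pp and 5896 in the whole embryo by 1435110_at on MOE430A. As for Efnb1 and Efnb2, the values ran in the order Ad, Pp, whole embryo with no overlap. These genes were named for being lower in the fragments, and Ad below Pp without overlap held for 29.1% of all probe sets on MOE430A. The fragments averaged 3837 ± 480 (SD, n = 4), and the whole embryo was 1.43-fold higher (fragments minus whole -0.52 ± 0.08, SE, adjusted p = 0.0184). Ad minus Pp, at -0.35 ± 0.07 (SE), did not pass (adjusted p = 0.211). It passed without Pp replicate 1, in a fit whose spread rests on the 2 Ad arrays alone, and not without Pp replicate 2. A second probe set on MOE430B, 1453269_at, was at 93.5 and 97.9 in Ad, 66.6 and 102 in Pp and 99.9 in the whole embryo, with a difference of 0.11 between Ad and Pp. Unc5d on MOE430B was at 90.3 and 88.6 in Ad, 67.9 and 56.3 in Pp and 73.2 in the whole embryo (0.39 ± 0.15, SE, adjusted p = 0.472), and Unc5c was at 735 and 731 in Ad, 771 and 805 in Pp and 772 in the whole embryo (adjusted p = 0.455).

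**Figure D3:**
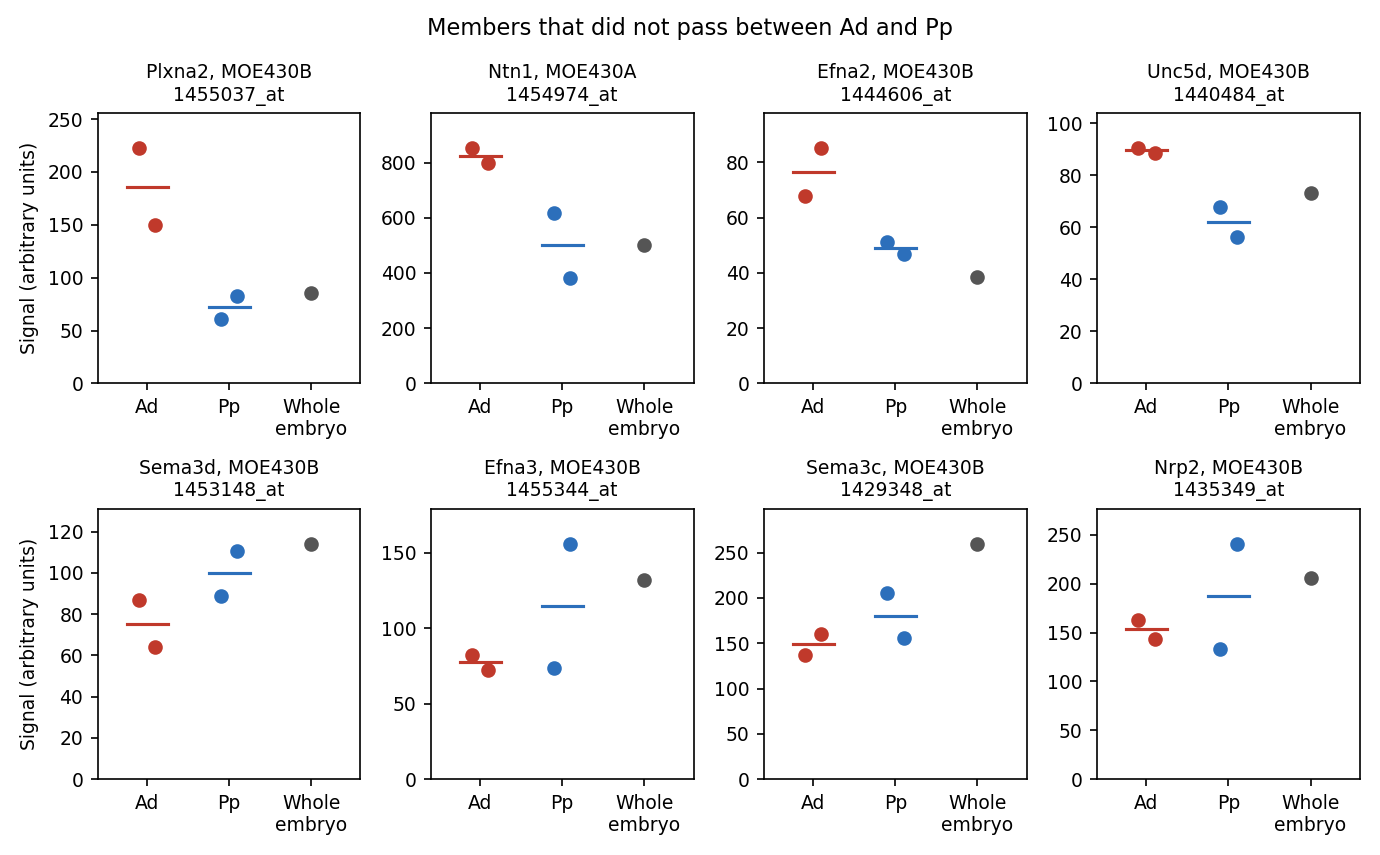
Signal of 8 members that did not pass between Ad and Pp, in arbitrary units on axes that start at 0, with points for single arrays and bars for the mean of 2. Plxna2, Ntn1, Efna2 and Unc5d lie higher in Ad, while Efna3 and Nrp2 are high in 1 Pp array (156 and 241) and in the whole embryo.

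Set against the whole embryo, 5 of 44 measured members on MOE430A passed as lower in the fragments, 2 probe sets of Efnb2 and 1 each of Efnb1, Unc5b and Slit3, and 0 as higher. Of these, Slit3 counted as measured only through the whole-embryo array. Over all probe sets 5.18% passed as lower, 4.6% as higher and 9.78% in either direction. An unadjusted p under 0.05 was found for 7 of the 44, against 27.3% of all. On MOE430B 0 of 35 members passed in limma, 4 had an unadjusted p under 0.05, against 16.4% of all, and 1.81% of all passed as lower, 0.407% as higher and 2.21% in either direction. Sema6d came nearest there (1453055_at, -0.98 ± 0.21, SE, adjusted p = 0.0792), a mean over fragments of which Ad lay above and Pp far below the whole embryo. For 0 members did all 4 fragments lie at least 2-fold from the whole embryo, which held for 1.18% of all probe sets on MOE430A and 1.5% on MOE430B. The 5 calls ended without Ad replicate 1 and without Ad replicate 2, where the adjusted p lay between 0.0770 (Unc5b) and 0.161 (Efnb2), and Efnb2 by 1419639_at also lost its call with no filter (0.0640). With no filter the dim semaphorin gene Sema5a passed on MOE430A by 1434776_at, at 101 and 113 in Ad, 99.9 and 130 in Pp and 355 in the whole embryo (-0.68 ± 0.08, SE, adjusted p = 0.0127).

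**Figure D4:**
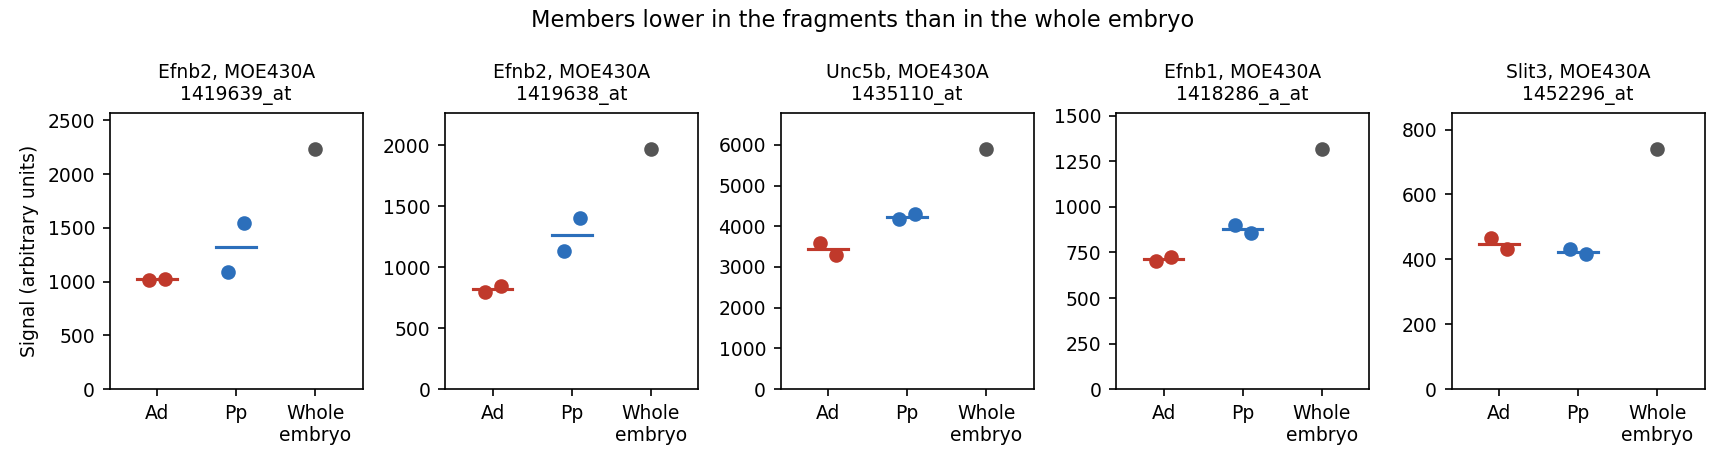
Signal on each MOE430A array of the 5 member probe sets that were lower in the fragments than in the whole embryo, in arbitrary units on axes that start at 0, with points for single arrays and bars for the mean of 2. For Efnb2, Efnb1 and Unc5b the Ad arrays lie lowest and the whole embryo highest; for Slit3 the 4 fragments sit between 418 and 465.

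Summed signals of marker lists for tissues outside the cut fragments were higher in the whole embryo on the same arrays. The summed signal of 13 maternal decidua genes on MOE430A (11 measured) was 8822 and 9391 in Ad, 8539 and 7996 in Pp and 31261 in the whole embryo, and 7 of the 11 were lower in the fragments. Among these, Col1a1 and Wnt4 had every fragment under the measured level and counted as measured only through the whole-embryo array. On MOE430B the 6 decidua genes present summed to 299 and 408 in Ad, 405 and 330 in Pp and 5369 in the whole embryo. The 8 parietal endoderm genes summed to 15469 and 15189 in Ad, 10683 and 11263 in Pp and 21482 in the whole embryo, with 4 of 5 measured ones lower in the fragments. All 5 were also higher in Ad than in Pp (median 0.45), each with an unadjusted limma p under 0.05, and 0 passed. This list therefore differed within the fragments and does not mark only tissue outside them. On MOE430B 0 of its 2 measured genes passed as lower in the fragments. The 4 ectoplacental and giant cell genes present summed to 3912 to 4895 in the fragments, against 9552 in the whole embryo. Of 8 blood and endothelium genes on MOE430A 1 was measured, and it did not pass (-0.09 for fragments minus whole embryo). The 8 genes summed to 2345 to 2517 in the fragments, against 4237 in the whole embryo. Cdh5, an endothelial cadherin that was not measured, lay between 212 and 308 in the fragments, against 1356 in the whole embryo. The higher sum therefore does not describe the list as a group. None of these marker probe sets was listed at 0. The part of such tissues in the lower fragment signals of Efnb1, Efnb2, Unc5b and Slit3 was not tested. Visceral endoderm and epiblast lists summed to 56315 to 73160 and 33693 to 38084 in the fragments, against 54318 and 26213 in the whole embryo.

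Co-receptors and transducers of guidance signals, a list of 61 genes apart from the members, were counted by the brightest probe set of each gene. Between Ad and Pp 0 of 38 measured on MOE430A and 0 of 27 on MOE430B passed in limma, while 6 and 2 had an unadjusted p under 0.05, which held for 11.7% and 10.4% of all probe sets. Flrt3, a transmembrane protein that binds Unc5 receptors, had the largest difference among these: 1466 and 1386 in Ad, 742 and 470 in Pp and 566 in the whole embryo on MOE430B (1.18 ± 0.24, SE, adjusted p = 0.287). Grb10, an adaptor of receptor tyrosine kinases, was at 8883 and 8210 in Ad, 4918 and 5425 in Pp and 9484 in the whole embryo (Ad minus Pp 0.63 ± 0.08, SE, adjusted p = 0.0909). Against the whole embryo 4 of 38 fell in the fragments on MOE430A, namely the netrin and Rgm receptor gene Neo1, Dpysl3, Limk2 and Grb10, and 0 rose, where 5.18% of all probe sets were lower and 4.6% higher. Dpysl3 was at 410 and 433 in Ad, 408 and 414 in Pp and 857 in the whole embryo. Limk2 was at 423 and 413 in Ad, 413 and 389 in Pp and 976 in the whole embryo. Every fragment value of Dpysl3 and Limk2 lay under the measured level. Like Slit3, both counted as measured only through the whole-embryo array. Neo1 was at 1401 and 1295 in Ad, 1592 and 1540 in Pp and 2836 in the whole embryo (-0.78 ± 0.08, SE, adjusted p = 0.00421), in the same order of Ad, Pp and whole embryo as Efnb1, Efnb2 and Unc5b. The share of all probe sets with this order was not counted. On MOE430B 2 of 27 fell, Flrt2 and the semaphorin transducer Dpysl2, where 1.81% of all were lower. Flrt2 was at 40.2 and 44.5 in Ad, 50.9 and 41.9 in Pp and 221 in the whole embryo (adjusted p = 0.00304). The median difference from the whole embryo was -0.13 for the list on each array type, against 0.05 and 0.03 for all measured probe sets. These are unlike sets, since the list holds only the brightest probe set of each gene.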

How the data were processed

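RNA from fragments and whole embryos was linearly amplified and biotin labelled, per the labels' protocols. The authors deposited MAS5 probe set intensity values on a linear scale, as the submitters' processing notes name that tool. Its version and scaling are not stated in the labels. On MOE430B 5.70% to 6.14% of each array's values were exactly 1, and 6 member probe sets, none of them measured, held such a value.

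Each array type was fitted alone in R 4.3.3 with limma 3.58.1, after leaving out 64 control probe sets. A pseudocount (248 on MOE430A, 10.5 on MOE430B: the 20th percentile) preceded log2, probe sets above the 40th percentile of mean log2 value were kept, and arrays were centred on their medians. The pseudocount pulls the differences of dim probe sets towards 0. The model held 3 groups with 2 residual degrees of freedom, and the single whole embryo was assumed to vary like the fragments. Tests were two-sided. The number of arrays limits the precision. The fit was tested on simulated data.

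Symbols came from the platform annotation, and all 68 were in the RefSeq table of GRCm38.p6. Values on each array are given for members past the threshold or at least 2-fold apart (5 genes), filled up to 20 genes by the smallest unadjusted p between Ad and Pp. Array values of further members were given after those values were seen. Members and lists were chosen with earlier results of these data known. Alternatives were quantile and cyclic loess normalization or no centring, other pseudocounts and filters, an intensity trend, a replicate block and leaving out each fragment array. Figures were drawn with matplotlib 3.10.9.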

Additional observations from a re-analysis of the deposited data

How the results depend on the processing

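Counts of member probe sets past the threshold, with all arrays kept, were 0 between Ad and Pp on MOE430A and 0 between fragments and whole embryo on MOE430B under each of the alternatives run. Against the whole embryo on MOE430A the count was 5 throughout, except 4 with the filter at the 60th percentile. Between Ad and Pp on MOE430B it was 1, Sema6d, except 0 with no filter, where more dim probe sets were tested. Leaving out 1 fragment array gave 0 to 4 calls between Ad and Pp on MOE430A, 0 to 8 against the whole embryo on MOE430A, 0 to 1 between Ad and Pp on MOE430B and 0 to 2 against the whole embryo on MOE430B. In these fits, over all probe sets, Ad against Pp gave 1 to 805 calls on MOE430A and 0 to 131 on MOE430B, against 23 and 15 with all arrays, and fragments against whole embryo gave 274 to 3491 and 101 to 1183, against 1327 and 299. With all arrays kept, Ad against Pp gave between 19 and 47 such calls on MOE430A, between 2 and 30 on MOE430B. Of the differences of single members, Slit3 in Ad minus Pp (-0.02) changed sign, to 0.051 with no centring, 0.024 under cyclic loess and 0.012 with no filter, and ranged from -0.042 to 0.0084 when 1 fragment array was left out. The other differences recomputed under every alternative, those of the probe sets by which the rule named genes, kept their direction. Further probe sets of these genes were not followed in this way. Plxna2 by 1453286_at turned with no filter (-0.015 against 0.0029). With no filter, differences near 0 of members outside that rule turned as well, among them Slit1 (-0.03 against 0.0036), Epha4 (-0.00404 against 0.025) and Plxna4 (-0.01 against 0.0048). Same-numbered Ad and Pp arrays did not deviate together (r = -0.24 on MOE430A and -0.04 on MOE430B, across probe sets), and the labels do not say that the numbers pair the arrays. The replicate block left the member counts at 0 on MOE430A and 1 on MOE430B, with 24 and 29 calls over all probe sets. Pairing the MOE430A arrays crosswise, chosen after seeing the data, gave 0 member calls and 47 in all. No paired analysis was possible against the whole embryo because it is a single array. Of the 149 member probe sets, 70 were left out of the main fit by the filter on mean signal and were tested with no filter.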
